A study of Mus musculus with 10 samples.

Results

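The 3 mammalian superoxide dismutase genes, the copper chaperone gene Ccs and the catalase gene Cat were followed in heart RNA sequencing of 10 mice aged 6 weeks. The genes were taken by their symbols, and all 5 of the 5 listed symbols (Sod1, Sod2, Sod3, Cat and Ccs) had a row among the 24537 genes of the count table. Of the mice, 5 were controls (Rosa26-rtTA2+/-;TRE-SOD2-shRNA-/-) and 5 were iSOD2 mice (Rosa26-rtTA2+/-;TRE-SOD2-shRNA+/-). Every mouse carried 1 copy of a reverse tetracycline transactivator at Rosa26, had a wild-type C57BL/6J mother and was exposed in utero to the doxycycline of the mother's chow, which ended at birth. The groups therefore differed by 1 copy of a hairpin transgene targeting Sod2, under a doxycycline-responsive element and placed at the Col1a1 locus, which was to be expressed in the embryo only. The controls were 3 males and 2 females and the iSOD2 mice 2 males and 3 females, with 2 mice of each genotype from litter A and 3 from litter B. In litter A the controls were 2 males, and the iSOD2 mice 1 male and 1 female. In litter B each genotype had 1 male and 2 females, so sex and litter were not fully separate. Neither the transactivator nor the hairpin was restricted to cardiomyocytes, and the samples were pieces of heart tissue, taken from the same region in each mouse per the study's methods, with all their cell types, so that fewer cells of a type and less RNA per cell cannot be told apart.

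Superoxide dismutases turn superoxide into hydrogen peroxide and oxygen. SOD1, a copper and zinc enzyme, works in the cytosol and in the space between the mitochondrial membranes. SOD2, a manganese enzyme, works in the mitochondrial matrix, where the respiratory chain releases superoxide, and SOD3, another copper and zinc enzyme, is secreted and held in the extracellular matrix. CCS hands copper to SOD1. Catalase, mostly a peroxisomal enzyme, breaks hydrogen peroxide down to water and oxygen. Loss of Sod2 in mice is known to damage heart mitochondria early in life.

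In the mm10 coordinates of the count table, Sod1 (NM_011434) spanned chr16:90220742-90226324 on the plus strand, with 641 bp of exon in 5 exons. Sod2 (NM_013671) spanned chr17:13007839-13018119 on the plus strand, with 3817 bp of exon, also in 5 exons. Sod3 (NM_011435) spanned chr5:52363804-52369738 on the plus strand, with 2041 bp of exon in 2 exons. Cat (NM_009804) spanned chr2:103453904-103485153 on the minus strand, with 2536 bp of exon in 13 exons, and Ccs (NM_016892) spanned chr19:4825366-4839322 on the minus strand, with 1047 bp of exon in 8 exons. The exon lengths are those of the count table, and the exon numbers those of the matched GENCODE M21 transcripts. Exons of the latter add up to 641 bp for Sod1, 5861 for Sod2, 3738 for Sod3, 2613 for Cat and 1067 for Ccs. By either length Sod1 was the shortest transcript of the 5 genes and Sod2 the longest. The coding sequence made up 72.1% of the table's exon length for Sod1 and 17.4% for Sod2.

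RefSeq promoter sequences (GRCm38.p6) were held for 3 of the 5 genes, and the 150 bases before the RefSeq start of each (for Sod1 a start inside the first exon of the count table's model) are shown, since these short stretches set the dismutase and catalase promoters apart by the elements they hold. Capitals mark the GC box GGGCGG, read on either strand, and the TATA box TATAAA.
Sod1, chr16:90220612-90220761, plus strand: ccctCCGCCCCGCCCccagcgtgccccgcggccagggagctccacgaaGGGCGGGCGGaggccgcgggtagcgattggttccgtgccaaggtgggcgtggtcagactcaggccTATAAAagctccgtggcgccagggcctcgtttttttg
Sod2, chr17:13007689-13007838, plus strand: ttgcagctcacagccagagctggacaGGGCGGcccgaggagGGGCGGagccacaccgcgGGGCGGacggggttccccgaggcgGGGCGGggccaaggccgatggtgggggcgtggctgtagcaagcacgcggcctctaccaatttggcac
Cat, chr2:103485154-103485303, minus strand: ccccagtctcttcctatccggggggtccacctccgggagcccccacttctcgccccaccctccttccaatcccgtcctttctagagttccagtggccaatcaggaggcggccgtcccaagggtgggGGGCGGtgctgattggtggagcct

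Sod1 and Sod2 each held 4 matches to the GC box, the binding sequence of the Sp1 family, overlapping each other in Sod1, and Cat held 1. Of 32851 promoters of the same length, 35.7% held a GC box. The TATA box was matched in Sod1 alone of the 3, and in 13.6% of all promoters. CCAAT, the letters bound by the factor NF-Y, was matched 4 times in Cat, with 1 of these farther upstream than the bases shown, and 1 time each in Sod1 and Sod2, against 37.4% of promoters with at least 1. The letters TGACNNNGC, the core of the antioxidant response element that NRF2 binds, were matched 1 time in Sod1, beginning 56 bases before its start, and in 12.4% of promoters. The forkhead letters GTAAACA were matched in none of the 3 windows and in 3.65% of promoters. Both strands were searched over 250 bases before and 50 after each start, and a match is a description of the letters only.

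Sod2, the gene targeted by the hairpin, was compared first, to ask whether its transcript still differed between genotypes at 6 weeks. Its normalized read counts in controls 1, 2, 3, 4 and 6 were 10650, 10680, 11019, 10953 and 9561. In iSOD2 mice 5, 7, 8, 9 and 10 they were 11063, 11306, 10117, 10695 and 10724. The genotypes overlapped, with control 6 the lowest heart and iSOD2 7 the highest. The iSOD2 mean of 10781 ± 449 stood beside a control mean of 10573 ± 588 (SD, n = 5 each). The log2 fold change, iSOD2 over control, called the log2 change from here on, was 0.028 ± 0.051 (SE) with an adjusted p of 0.806 in DESeq2's Wald test, and its 95% interval ran from −0.071 to 0.13. As a percentage, the difference was 1.97% with an interval from −4.82% to 9.25%, so a larger loss of Sod2 transcript than the lower bound lay outside the interval. Without control 6 the log2 change was −0.0061.

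**Figure D1:**
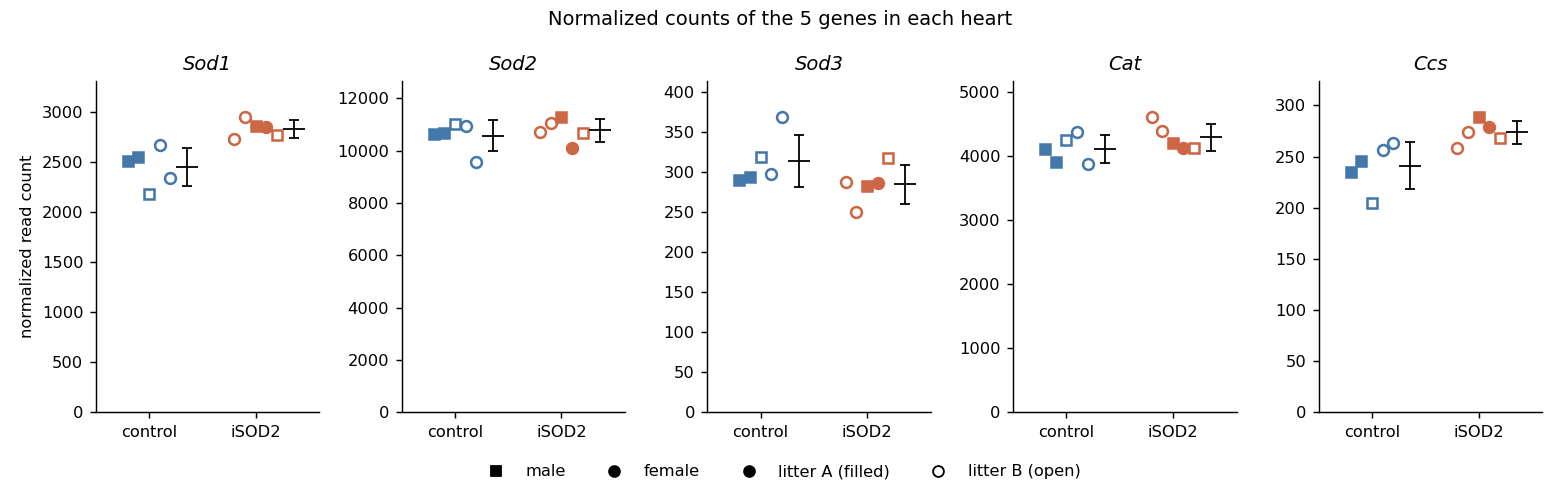
Normalized read count (vertical axes, each from 0) of the 5 genes in every heart, controls in blue and iSOD2 mice in orange, with squares for males, circles for females, filled symbols for litter A and open symbols for litter B. Bars give the mean and SD of 5 hearts, and the genotypes separate without overlap in the Sod1 panel alone.

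Per exon length in the count table, Sod1 was the most abundant of the 5 transcripts and Sod3 the least. The longer GENCODE lengths of Sod2 and Sod3 were not tried, and shorter forms of single transcripts were not either. The mean level over 10 hearts, as normalized count per kb of exon, was 4114 ± 383 for Sod1 (SD), 2797 ± 132 for Sod2, 1656 ± 88.4 for Cat, 246 ± 23.1 for Ccs and 146 ± 15.3 for Sod3. This order held in 10 of 10 hearts, and no heart's level of a gene reached any heart's level of the gene before or after it. The closest neighbours were Sod1 and Sod2, whose ratio ranged from 1.18 to 1.67 over the hearts, and Ccs and Sod3, with ratios from 1.26 to 2.14. Cat exceeded Ccs by 5.99 to 8.56 times. Among the 17746 genes kept for testing, Sod1 had rank 241 by this level, Sod2 350, Cat 581, Ccs 4213 and Sod3 6419. Of the summed level of the 3 dismutases, Sod1 made up 59.8% ± 1.05 in iSOD2 hearts against 56.6% ± 2.15 in controls (SD, n = 5 each), while Sod2 made up 38.3% ± 1.02 against 41.1% ± 2.10 and Sod3 1.89% ± 0.196 against 2.29% ± 0.353. The Sod1 shares did not overlap between genotypes, with 52.8% to 58.0% in controls and 59.0% to 61.4% in iSOD2 hearts. With the trend on exon length (taken up after the single genes) removed, they overlapped, at 55.5% to 59.5% and 57.5% to 59.8%.

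**Figure D2:**
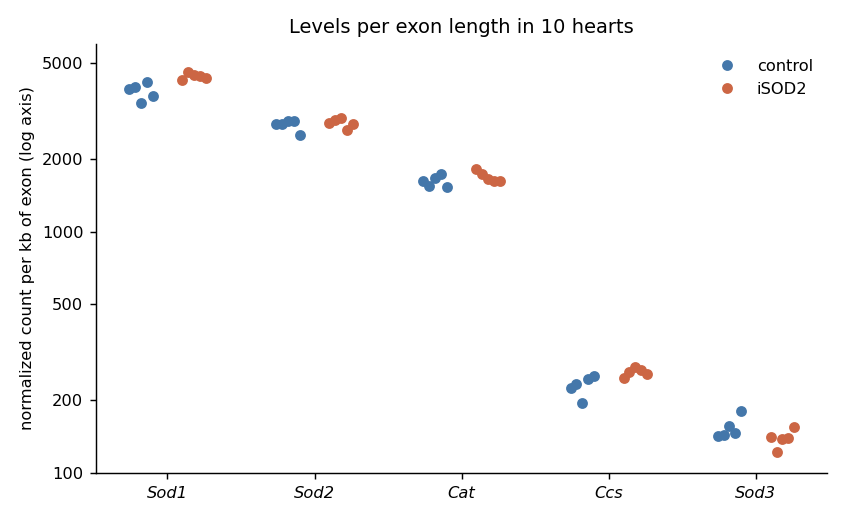
Normalized count per kb of exon (vertical log axis) of the 5 genes, ordered by mean level, with 1 point for each of the 5 control (blue) and 5 iSOD2 (orange) hearts. The columns of points for neighbouring genes do not overlap, and the gap between Cat and Ccs is the widest, at 5.99 to 8.56 times within a heart.

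Sod1, the cytosolic dismutase, was the single gene of the 5 that passed an adjusted p of 0.05. Its normalized counts were 2508, 2544, 2179, 2664 and 2333 in controls 1, 2, 3, 4 and 6. In iSOD2 mice 5, 7, 8, 9 and 10 they were 2951, 2856, 2846, 2767 and 2725. The lowest iSOD2 heart lay above the highest control, control 4, and the controls spread more widely than the iSOD2 hearts, with coefficients of variation of 7.78% and 3.09%. The means were 2446 ± 190 and 2829 ± 87.4 (SD, n = 5 each), a log2 change of 0.21 ± 0.059 (SE; DESeq2 adjusted p = 0.0125). That is 15.6% more in iSOD2 hearts, with a 95% interval from 6.79% to 25.2%. The change stayed under the 0.25 that the study's rule also asks for, so Sod1 was not called. A two-sided exact permutation test of the log2 values gave p = 0.00794 over all ways to split the 10 hearts into 5 and 5, the smallest it can give, and 0.0167 within litters and 0.01 within sexes, again the smallest possible. Without control 3, the lowest heart, the adjusted p was 0.0630, and edgeR's quasi-likelihood test gave 0.109 with all 10 hearts.

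Ccs, the chaperone that loads copper into SOD1, had 235, 245, 205, 257 and 264 normalized counts in the hearts of controls 1, 2, 3, 4 and 6. It had 274, 289, 279, 269 and 259 in iSOD2 mice 5, 7, 8, 9 and 10. Of the iSOD2 hearts 4 lay above every control, and iSOD2 10 lay just under control 6. Control 3 was the lowest heart, as it was for Sod1. The means were 241 ± 23.0 and 274 ± 11.3 (SD, n = 5 each). The log2 change was 0.18 ± 0.089 (SE) with a 95% interval from 0.0020 to 0.35, and it did not pass the correction over all genes (DESeq2 unadjusted p = 0.0474, adjusted p = 0.243). The exact permutation test, two-sided, gave p = 0.0159. With 163.5 to 324.5 counts per heart behind these values, counting error alone gives a coefficient of variation of 6.18%, against 9.52% seen among controls and 4.13% among iSOD2 hearts.

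Sod3, the extracellular dismutase, was the single gene of the 5 with a lower mean in iSOD2 hearts, and it did not pass the test. Its normalized counts were 289, 293, 319, 297 and 369 in controls 1, 2, 3, 4 and 6. They were 250, 282, 286, 318 and 287 in iSOD2 mice 5, 7, 8, 9 and 10. The genotypes overlapped, control 6 stood highest, and 1 of 5 iSOD2 hearts lay above the control median. The log2 change was −0.14 ± 0.096 (SE; DESeq2 adjusted p = 0.424), with a 95% interval from −0.33 to 0.047. Without control 6, the highest heart, it was −0.076. The exact permutation test, two-sided, gave p = 0.127.

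Cat, the peroxisomal catalase gene, had 4109, 3908, 4252, 4380 and 3883 normalized counts in the hearts of controls 1, 2, 3, 4 and 6. In iSOD2 mice 5, 7, 8, 9 and 10 it had 4394, 4196, 4118, 4132 and 4616. All 5 iSOD2 hearts lay above the control median, yet 3 of them lay within the control range. The log2 change was 0.064 ± 0.052 (SE; DESeq2 adjusted p = 0.527), and its 95% interval, from −0.039 to 0.17, left out a rise of more than 12.2%. Without iSOD2 10, the highest heart, the log2 change was 0.036. The exact permutation test, two-sided, gave p = 0.206.

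Over all genes, 281 of 9489 with an adjusted p were called, which is 2.96%, and none of the 5 genes was among them. An adjusted p of at most 0.05 with a higher level in iSOD2 hearts was met by 3.04% of genes, and by 1 of the 5, Sod1. Hearts of the genotypes did not overlap, with iSOD2 higher, for 2.1% of the 17746 genes kept, and again for 1 of the 5. The last of these shares came from the ranges of the hearts and the others from the Wald test of DESeq2, where edgeR called 0 genes, with 2723 at an unadjusted p under 0.05 and a lowest adjusted p of 0.0662.

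The genotype difference moved with transcript length across the whole table, and Sod1 and Ccs were the shortest of the 5 genes. Where a gene averaged 50 or more normalized counts, the median log2 change was 0.11 in the fifth with the shortest exons and −0.079 in the fifth with the longest. The slope of a heart's log2 deviations on log2 exon length lay above 0 in all 5 controls and below 0 in all 5 iSOD2 hearts. Genes within 0.8 to 1.25 times the exon length of Sod1, 338 in number, had a median of 0.14 with quartiles of 0.059 and 0.20, beside 0.21 for Sod1 itself. The 951 genes of about the length of Ccs had a median of 0.11, beside 0.18 for Ccs. The medians at the lengths of Cat, Sod3 and Sod2 were 0.0080, 0.036 and −0.036, beside 0.064, −0.14 and 0.028 for those genes.

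With the trend on exon length removed from each heart, the log2 change of Sod1 was 0.061 (DESeq2 adjusted p = 0.705) and that of Ccs 0.066 (adjusted p = 0.877). Sod1 then had 2685 ± 68.0 counts in iSOD2 hearts beside 2573 ± 145 in controls (SD, n = 5 each), and the genotypes overlapped, with 2396 to 2728 against 2587 to 2747. Sod2, Sod3 and Cat stood at 0.063, −0.18 and 0.055. In that fit an adjusted p of at most 0.05 was met by 1.77% of genes and by 0 of the 5. The slope on length separated the genotypes, so its removal also takes out any genotype difference that transcripts of like length share. What caused the trend was not tested.

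**Figure D3:**
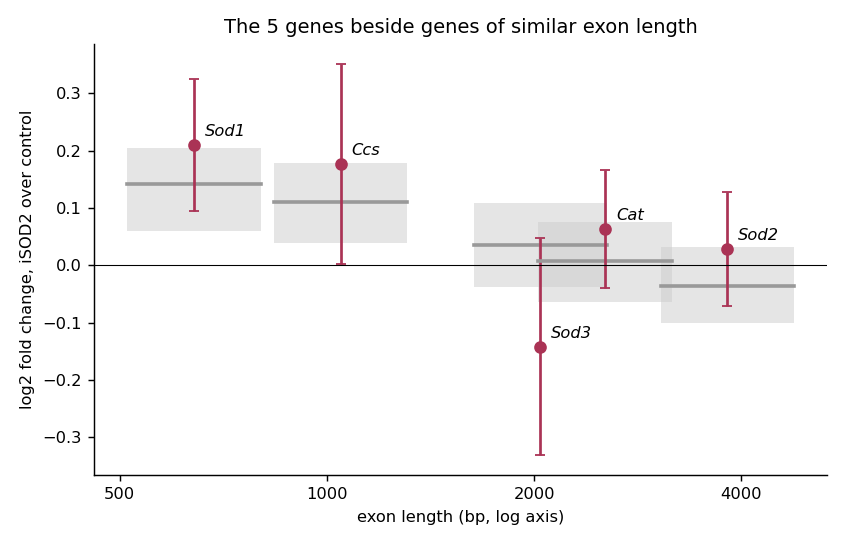
Log2 fold change, iSOD2 over control, against exon length in bp (log axis) for the 5 genes (red points, bars the 95% interval), with the median (grey line) and quartiles (shaded) of genes within 0.8 to 1.25 times each gene's length. The grey medians fall from 0.14 at the length of Sod1 to −0.036 at that of Sod2. Sod3 lies below its shaded band and Sod1 just above its own.

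The ratio of any 2 of the genes within a heart does not depend on how libraries were scaled. Of the 10 pairs, the ratio of Sod1 to Sod2 was the 1 that separated the genotypes. On the log2 scale of normalized counts it lay between −2.34 and −2.04 in controls and between −1.98 and −1.83 in iSOD2 hearts, a difference of 0.18 in the means. The ratio of Sod1 to its chaperone Ccs differed by 0.025, with overlapping values. Sod1 and Sod2 differ most in exon length, and with the length trend removed the difference in their ratio was −0.00099 and 0 of the 10 pairs separated the genotypes.

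Summed over all genes, the counts of the 10 libraries came to 16448090 to 24263086, rounded to whole counts. The 5 ventricular cardiomyocyte markers had a mean log2 level of 16.85 ± 0.0993 in controls, close to 16.87 ± 0.0933 in iSOD2 hearts (SD), and none was at 0 in any heart. Singly, 3 of these markers were higher and 2 lower in iSOD2 hearts. Actn2 was lower, at −0.19 (DESeq2 adjusted p = 0.0448), and stayed short of 0.25, while Tnnt2 and Myl3, at 0.18 and 0.11, did not pass. Actn2 passed in 3 of the 10 fits that left out 1 heart, and its adjusted p was 0.0865 with the length trend removed. The 9 hepatocyte markers, among them Alb (albumin) and Apoa2, were all higher on average in iSOD2 hearts, with a mean log2 level of 7.67 ± 2.09 against 9.51 ± 0.599 in controls and iSOD2 hearts (SD, n = 5 each; two-sided exact permutation p = 0.0238, adjusted over 10 marker lists 0.238). Control 1 stood apart at 4.07, with the other 4 controls at 7.84 to 9.35, and without it the difference fell from 1.83 to 0.93 (two-sided exact permutation p = 0.0556). Their summed level ran from 246 to 11601 normalized counts in controls and from 5845 to 23008 in iSOD2 hearts, and none was at 0. Of the 9 hepatocyte markers 1, Apoa2, was called, against 1.26% of all genes called higher. Sod1 and Cat are abundant in liver. With the hepatocyte level as a covariate the log2 change of Sod1 was 0.25 (DESeq2 adjusted p = 0.0513), and that of Cat stayed short of the threshold. The SE of Sod1 was 0.073 in that fit, against 0.059 without the covariate. Since the hepatocyte level was itself higher on average in iSOD2 hearts, this covariate overlaps with genotype. Why a gene lost its adjusted p in that fit was not tested. Atrial markers were high in 1 heart, iSOD2 10, at a mean log2 level of 7.16, with the other 4 iSOD2 hearts at 3.64 to 4.43 and the controls at 3.02 to 4.04. They summed to 518 to 2124 counts in controls and 635 to 7656 in iSOD2 hearts, and of these Sln and Bmp10 were at 0 in some hearts. Without iSOD2 10 the log2 change of Sod1 was 0.22 (DESeq2 adjusted p = 0.0234). The other 8 marker lists, atrial included, had two-sided exact permutation p from 0.111 to 0.802. Within them 2 of the 4 smooth muscle markers, Tagln and Myh11, were called at 0.40 and 0.28, against 1.26% of all genes called higher. The other two, Acta2 and Cnn1, stood at −0.071 and 0.071 and were not called, and Myh11 kept its call without control 6 or iSOD2 10 and lost it without any other heart.

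Some counts of Sod1 may be uncertain, since part of its sequence has a copy elsewhere; reads were not examined. Of its 611 overlapping 31-base stretches, 35.4% also occur elsewhere in the annotated transcripts, nearly all in Gm8566, a processed pseudogene at chr6:67205619-67206083 that has no row in the count table. Cat and Ccs shared none, Sod3 0.485% and Sod2 3.88%. The annotated span of Scaf4, on the opposite strand, overlaps that of Sod1, but 0 bp of the 641 bp of Sod1 exon lie in a Scaf4 exon. The nearest neighbours in the table had low or moderate counts, with at most 3 reads in a heart for Ccdc87, whose start lies 44 bp from Ccs, and at most 6 for Elf5 beside Cat. Ccdc149 beside Sod3 had 114 to 196 reads, and Scaf4 423 to 547.

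None of the 5 genes differed between litters or between sexes beyond the spread of the hearts. Between litters, with genotype as a covariate, the differences ran from −0.048 for Sod1 to 0.085 for Sod3 (log2, litter B over litter A), and the lowest adjusted p of DESeq2 was 0.638, for Cat. The background was 3.5% of genes called between litters. Between females and males the differences ran from −0.060 for Sod2 to 0.065 for Ccs (log2, female over male), with 0.483% of all genes called. The intervals of the 10 differences still allowed changes of up to 0.28 on the log2 scale, the upper bound for Sod3 between litters.

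The genotype difference of the 5 genes was also compared between sexes and between litters. Sod1 was higher in iSOD2 hearts in each stratum, with means of 2526 and 2851 in litter A, 2392 and 2814 in litter B, 2410 and 2811 in males and 2499 and 2841 in females. The difference of Sod3 came to −0.28 on the log2 scale in females and −0.0033 in males, and that of Ccs to 0.054 in females and 0.28 in males. The interaction of genotype and sex was −0.28 with a 95% interval from −0.70 to 0.15 for Sod3 and −0.22 with an interval from −0.64 to 0.19 for Ccs. No gene of the 5 passed in either interaction, where 0% and 0.00564% of all genes were called, for sex and for litter. With 2 or 3 hearts in a stratum, intervals as wide as these do not show that the sexes respond alike.

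**Figure D4:**
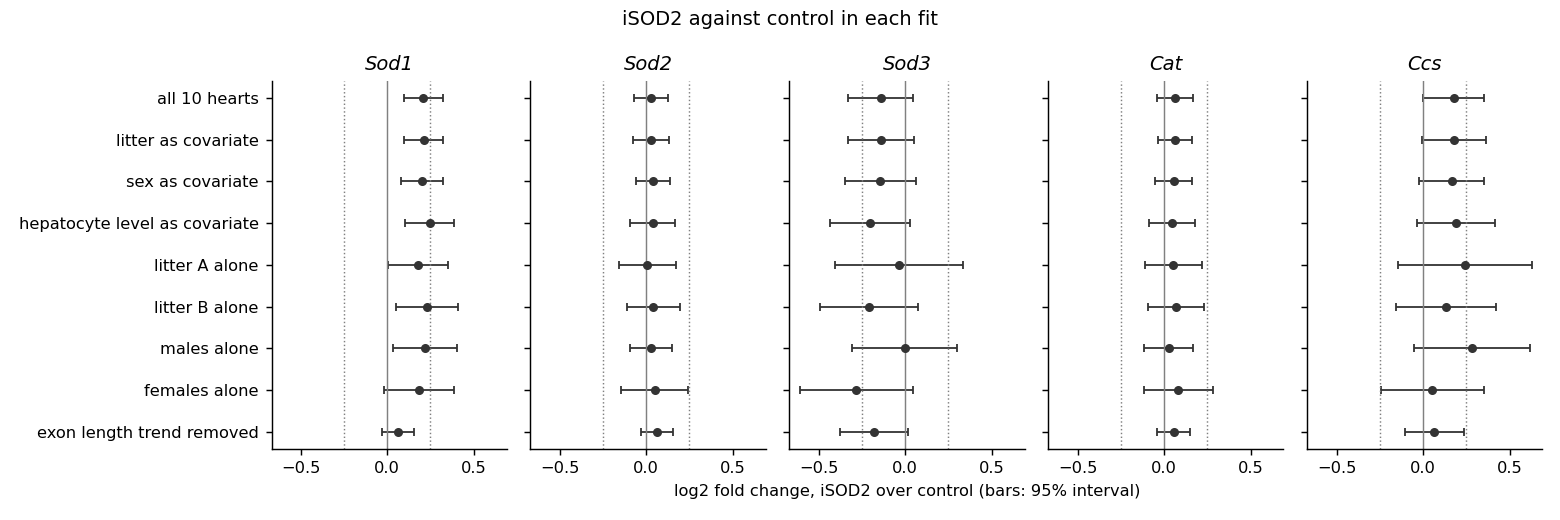
Log2 fold change, iSOD2 over control (horizontal axes), of the 5 genes in 9 fits, with bars for the 95% interval, a line at 0 and dotted lines at −0.25 and 0.25. Sod1 lies between 0.18 and 0.25 in each fit but the last, where removal of the exon length trend leaves 0.061.

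Around the 5 genes, 8 lists with 113 genes of related function were examined, and beside each list stands the median of all genes with an adjusted p, −0.0079. Of all genes, 1.26% were called higher and 1.7% lower, and counts of called genes in lists this small stand beside those shares as a description. The list of peroxide removal holds the peroxiredoxins and glutathione peroxidases, which like catalase take away the product of the dismutases. Its 11 genes all had positive log2 changes, as had 4493 of the 9489 genes with an adjusted p. Their median was 0.13, but none was called. An adjusted p of at most 0.05 with a higher level was met by 3 genes of this list and by 3.04% of all genes. Prdx5, a peroxiredoxin of mitochondria and peroxisomes, passed an adjusted p of 0.05 at 0.14 ± 0.037 (SE; DESeq2 adjusted p = 0.00623), as did Gpx4, the lipid hydroperoxide peroxidase, at 0.14 ± 0.043 (adjusted p = 0.0274) and Prdx2 at 0.12 ± 0.040 (adjusted p = 0.0328). With sex as a covariate the adjusted p was 0.0223 for Prdx5, 0.0706 for Gpx4 and 0.0842 for Prdx2. With the hepatocyte level it was above 0.05 for all 3, at log2 changes of 0.13, 0.15 and 0.14 in the same order. Prdx5 passed in 10 of the 10 fits that left out 1 heart. Gpx4 passed in 3, without control 4, iSOD2 5 or iSOD2 7, and reached 0.167 without control 3, while Prdx2 passed in 3, without control 6, iSOD2 7 or iSOD2 9, and reached 0.171, also without control 3. Prdx1, Gpx1 and Prdx4 had the largest values, 0.22, 0.20 and 0.19, and did not pass. The median exon length of this list was 1209 bp, against 3210 bp over all genes. With the length trend removed its median was 0.035 and none of its genes passed. In that fit 10 of the 11 values were positive, as were 4883 of the same 9489 genes.

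Copper handling, which supplies SOD1 and SOD3, had 1 of 19 genes called, against 2.96% of all genes, and this was Cox17, the chaperone that carries copper toward cytochrome oxidase. Cox17 had 600 to 736 normalized counts in controls and 805 to 900 in iSOD2 hearts, without overlap, and rose by 0.34 ± 0.072 (log2, SE; DESeq2 adjusted p = 4.56e-04). Its exons add up to 431 bp, and with the length trend removed the value was 0.18 (adjusted p = 0.168). The metallothionein gene Mt1 stood at 0.20 and the copper regulator gene Commd1 at 0.22, neither past the test. Mt2, another metallothionein gene, stood at 0.38 with no adjusted p. The copper importer Slc31a1, at −0.12, and Atox1, which carries copper to the secretory pathway, at 0.15, did not pass either.

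Manganese and zinc handling, which bears on SOD2 and on the zinc of SOD1 and SOD3, had 0 of 8 genes called and a median of −0.037. Its largest values among genes of at least 50 counts were −0.16 for Slc11a2, a divalent metal importer, −0.089 for Slc39a14, a manganese and zinc importer, and −0.080 for Mtf1, the metal-responsive transcription factor. The 29 genes that make superoxide or hydrogen peroxide, NADPH oxidases and peroxisomal oxidases among them, had 0 called and a median of 0.056, and 13 of them were abundant enough for an adjusted p. Uox, the urate oxidase typical of liver, had 1.81 to 172 normalized counts in controls and 94.3 to 320 in iSOD2 hearts. Its log2 change was 1.48, with no adjusted p, and 0.13 with the hepatocyte level as a covariate (DESeq2 adjusted p = 0.836). Xdh, xanthine dehydrogenase, stood at 0.34 ± 0.14 (SE; DESeq2 adjusted p = 0.115), and Maoa, a monoamine oxidase, at 0.28 with no adjusted p.

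Peroxisome biogenesis, the process that builds the compartment of catalase, had 0 of 20 genes called and a median of 0.015. Pex11g, with no adjusted p, stood at 0.19 and Pex16 at 0.10. Of the 5 genes whose products bind or process SOD3, 2 were called, both lower, against 1.7% of all genes. Hspg2, the heparan sulfate proteoglycan perlecan, had 16569 to 23460 normalized counts in the control hearts and 12670 to 14405 in the iSOD2 hearts, without overlap, a log2 difference of −0.56 ± 0.082 (SE; DESeq2 adjusted p = 1.13e-07). Lrp1, a large endocytic receptor, had 9051 to 12102 counts in controls and 7062 to 8705 in iSOD2 hearts, with a log2 change of −0.43 ± 0.083 (adjusted p = 1.31e-04). Both are among the longest transcripts, with 14078 and 14800 bp of exon, and both still passed with the length trend removed, at −0.45 (adjusted p = 2.09e-05) and −0.31 (adjusted p = 0.00472). Neither passed in edgeR, where the adjusted p was 0.0662 for each. Hspg2 passed in each sex alone, at −0.44 in females and −0.61 in males. Lrp1 passed in males alone, at −0.51, but not in females alone, at −0.28 (DESeq2 adjusted p = 0.786). Furin, which cleaves the matrix-binding end of SOD3, Fbln5, which tethers SOD3 to elastic fibres, and the collagen gene Col1a2 did not pass, at −0.048, 0.070 and −0.18.

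Of 14 regulators known to act on these genes, Cebpb was called. This C/EBP factor, which acts at the Sod2 enhancer, had 190 to 382 normalized counts in controls and 327 to 537 in iSOD2 hearts, with overlap, and rose by 0.63 ± 0.18 (log2, SE; DESeq2 adjusted p = 0.0171; 0.0744 with the length trend removed). It was called in 5 of the 10 fits that left out 1 heart, and lost the call without control 1, 2, 3 or 6 or iSOD2 5, at adjusted p from 0.0536 to 0.109, and with the hepatocyte level as a covariate, at 0.193. With that covariate its log2 change was 0.53. Foxo1, a forkhead activator of antioxidant genes, fell, with 623 to 659 counts in controls and 490 to 574 in iSOD2 hearts. Its log2 difference of −0.22 ± 0.063 (SE; DESeq2 adjusted p = 0.0133) stayed short of 0.25 and had an adjusted p of 0.204 with the length trend removed, 0.0859 without control 3 and 0.0644 without iSOD2 10. Nfe2l2, which encodes NRF2, its inhibitor Keap1 and Foxo3 stood at 0.040, 0.083 and 0.036 and did not pass. Ppargc1b stood at −0.30, past 0.25 in size, with a DESeq2 adjusted p of 0.054. It was called in 3 of the 10 fits that left out 1 heart. With the length trend removed it stood at −0.27 (DESeq2 adjusted p = 0.158). Sirt3 stood at 0.11 and did not pass (DESeq2 adjusted p = 0.565).

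The list of iron-sulfur targets of superoxide held 7 genes, among them subunits of the respiratory chain with such clusters, and Fh1, whose mammalian enzyme itself holds none. None of the 7 was called. Sdhb, the iron-sulfur subunit of succinate dehydrogenase, passed an adjusted p of 0.05 with 10477 to 11947 normalized counts in controls and 11953 to 13676 in iSOD2 hearts, at 0.16 ± 0.053 (SE; DESeq2 adjusted p = 0.0406), and stood at 0.051 with the length trend removed, while the adjusted p was 0.0865 with sex as a covariate and 0.128 with the hepatocyte level. With the hepatocyte level its log2 change was 0.19. Sdhb passed in 3 of the 10 fits that left out 1 heart, those without control 4, iSOD2 9 or iSOD2 10, with adjusted p up to 0.1998 in the others. Fh1 (fumarase) and Aco1 stood at 0.10 and −0.076 and did not pass.

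**Figure D5:**
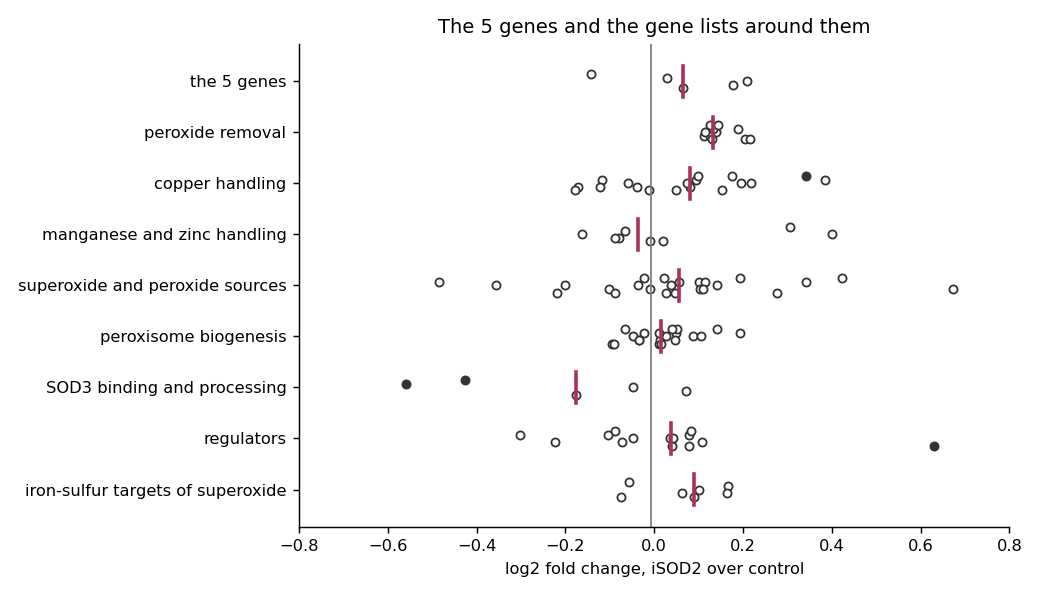
Log2 fold change, iSOD2 over control (horizontal axis), of each gene of the 5 and of the 8 lists around them, with filled points for called genes, a red bar for each list's median and a grey line for the median of all genes with an adjusted p. Points of peroxide removal all lie above 0, as do 4493 of the 9489 genes with an adjusted p, and 10 of 11 do once the length trend is removed. Filled points are Cox17, Cebpb, Hspg2 and Lrp1. Beyond the axis lie 6 genes that are not drawn, none with an adjusted p and most on the higher side, among them Uox at 1.48.

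The genes whose levels followed each of the 5 most closely over the 10 hearts were sought among 12151 genes averaging 50 or more normalized counts, as a description, since the hearts share genotypes, litters and the length trend. Sod1 was followed most closely by Pdf, Banf1 and Fnta, with Pearson's r of 0.98, 0.98 and 0.97. Sod2 was followed by Hadh, an enzyme of mitochondrial fatty acid oxidation, by Bcap29 and by Idh3a, a subunit of the mitochondrial isocitrate dehydrogenase, with r of 0.94, 0.93 and 0.92. Cat was followed by Sirt3, the mitochondrial deacetylase, by Idh1 and by Atpaf2, an assembly factor of ATP synthase, with r of 0.96, 0.94 and 0.94. Ccs was followed by Gm5148, Ndufa5, a subunit of respiratory complex I, and Spag7, with r of 0.97, 0.96 and 0.95, and Sod3 by Igsf10, Cdk17 and Ssr1, with r of 0.94 each. By Spearman's rho or with each genotype centred on its own mean, 0 to 2 of the 3 genes kept their place among the first 3.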

How the data were processed

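The 5 genes and all gene lists were chosen with earlier results of these data known. Total RNA from heart had been made into Illumina TruSeq Stranded Total RNA libraries. Per the study's methods, reads were aligned to mm10 (GRCm38) with STAR and counted per gene with HOMER; the strand option of the counting is not given in the sources used here. The counts the authors deposited are unnormalized, in steps of 0.5 whose reason is not given in the sources used here, and were handled here like estimated counts, with the summed exon length per gene as another column. Here counts were rounded, genes with at least 10 counts in all were kept (17746) and DESeq2 1.42.0 (R 4.3.3) was run without a covariate, on size factors from medians of ratios, after the study's methods. A gene was called at a Benjamini-Hochberg adjusted p of at most 0.05 and an absolute log2 fold change above 0.25. edgeR 4.0.16 served as an alternative. For the litter and sex comparisons genotype was a covariate. Exact permutation tests used log2(normalized count + 1). The length trend was a lowess curve (span 0.3) of each heart's log2 deviations on log2 exon length, removed by a scaling factor for each gene in each heart. The scripts were tested on simulated data. Named list genes were those called and up to 3 others with the largest fold change at a mean of at least 50; a few more were named after their values were seen (Slc31a1, Atox1, Nfe2l2, Keap1, Foxo3, Aco1, Prdx2, Prdx5, Gpx4 and Cnn1). Marker lists without 1 heart, dismutase shares without the length trend and the shorter effective exon length were added after the data were seen. Some list genes are not reported here. GENCODE M21 served for gene overlaps.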

Additional observations from a re-analysis of the deposited data

Results flagged for a closer look

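Control 6 had the lowest Sod2 level of the controls, at 9561 normalized counts, and its distance from the other 4 was past Dixon's 95% critical value for 5 samples. Of 10 groups examined in this way, 2 for each of the 5 genes, it was the 1 flagged, and chance alone flags about 1 group in 20. The same heart had the highest Sod3 level.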

How the results depend on the processing

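Sod1 kept a positive genotype difference in each of 24 alternatives. It lost an adjusted p of 0.05 in edgeR (log2 fold change 0.21), in litter B alone (0.23), litter A alone (0.18), males alone (0.22) and females alone (0.18), with the exon length trend removed (0.061), with length and GC trends removed (0.070, an alternative added after the data were seen) and with the hepatocyte level as a covariate (0.25). Leaving out 1 heart gave 0.17 to 0.24, with adjusted p from 0.00154 to 0.0630, past 0.05 only without control 3. Without 1 heart Sod3 ranged from −0.18 to −0.076, and Cat from 0.036 to 0.088. Sod3, Cat and Ccs kept the same sign in all 24 alternatives, and none passed an adjusted p of 0.05. For Sod3 and Ccs an adjusted p was given in 21 of the 24. Sod2 changed sign only without control 6, in a range of −0.0061 to 0.050 over the fits that left out 1 heart.

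The number of genes called was 281, 62 in litter B, 121 in litter A, 152 in males, 96 in females, 132 without the length trend, 119 without length and GC trends, 168 with the hepatocyte covariate, 0 in edgeR and 166 to 495 when 1 heart was left out; fewer hearts were tested in the strata, and the other causes were not tested. Leaving out control 1, 2, 3 or 4 moved it most, to 186, 166, 185 and 495.

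Near 0, the sign of a litter or sex difference was not stable. Sod2 between litters was 0.0018 in edgeR and 0.028 with sex as a covariate too, and −0.037 to 0.028 when 1 heart was left out, where Ccs spanned −0.071 to 0.00010. Sod3 between sexes was −0.014 without a covariate, −0.029 with litter too, and −0.085 to 0.077 when 1 heart was left out, where Sod1 spanned −0.0089 to 0.065. None of 130 such alternatives passed an adjusted p of 0.05. The order of the 5 levels was the same when scaled to total counts and with 150 bp taken from each exon length. No paired analysis was possible because the genotypes share no replicate number; litter, which they do share, entered as a covariate and within the permutation test.

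Depth limits Ccs and Sod3 most, whose counting error alone comes to a coefficient of variation of 6.18% and 5.77%, against 0.963% for Sod2. The 10 hearts came from 2 litters, and part of the Sod1 sequence also occurs in a pseudogene, whose share in the counts was not tested.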
